A study of Mus musculus with 22 samples.

Results

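Transcription factors that define microglia and other brain macrophages were measured by RNA sequencing in CD11b+ cells drawn with magnetic beads from the brains of young mice. CD11b is a surface integrin of myeloid cells. The set held 9 genes named as lineage factors of this compartment, *Spi1*, *Irf8*, *Maf*, *Runx1*, *Mef2a*, *Mef2c*, *Cebpa*, *Cebpb* and *Bhlhe41*, listed by name with earlier results of these data known, of 56691 genes in the count tables. All 9 were present in both batch files, and all 9 passed the filter on low counts in each comparison.

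The study modelled neonatal hypoxic-ischemic encephalopathy (HIE) in CF-1 mice, an outbred stock. In its methods, HIE pups were born to dams given lipopolysaccharide (LPS) by intraperitoneal injection on embryonic day 18 and were exposed to a short progressive hypoxia on P6, while the dams of controls received saline and control pups stayed in normal oxygen. The 22 libraries came from 20 animals in 5 groups of 4. The early controls were 2 pups of litter P6H63, labelled P8 and P9, and 2 pups of litter P6H55, labelled P10 and P11, although the methods place this collection on P7, so the age of these controls is uncertain. The P7 HIE group held 2 pups each of litters N5 and N8, all labelled male, whereas the early controls and each P14 group held 2 males and 2 females. The P14 groups were controls (litters P4H4 and P6H8), HIE (P4H1 and P6H12, with 2 libraries summed for each of 2 animals) and Hypoxia (P6H7 and P6H9), a group whose treatment is given by its label alone and which the methods read here do not describe. Littermates are not independent in their rearing, every group holds only 2 litters, and no litter contributed to more than one group, so litter and treatment cannot be told apart. Library totals ran from 29751540 to 83469067 counts. All early libraries were in one batch file and all P14 libraries in the other, so age and batch file cannot be told apart.

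PU.1, encoded by *Spi1*, is the ETS-family factor without which macrophages and microglia do not form, and it binds the enhancers of most myeloid genes. IRF8 binds beside PU.1 at composite sites, RUNX1 acts earlier in blood and yolk sac progenitors and is high in immature microglia, and the C/EBP, MEF2 and MAF families set the maturation and activation programmes on top of this base. C/EBPβ is best known for driving inflammatory genes, C/EBPα for myeloid commitment and c-MAF for an anti-inflammatory and tissue-resident programme. MEF2A and MEF2C are best known for the mature microglial state, and BHLHE41 for repression through E-boxes.

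The promoters of 2 genes are shown because these genes marked the opposite ends of the age comparison below, *Mef2a* on the higher side and *Cebpb* on the lower. The windows run from 250 bases before to 50 bases after the RefSeq transcript start on GRCm38.p6 and read 5′ to 3′ on the gene's own strand. Capitals mark the MEF2 letters CTANNNNTAG in *Mef2a* (chr7:67372809-67373108, minus strand) and the GC boxes GGGCGG on either strand in *Cebpb* (chr2:167688665-167688964, plus strand).
Mef2a: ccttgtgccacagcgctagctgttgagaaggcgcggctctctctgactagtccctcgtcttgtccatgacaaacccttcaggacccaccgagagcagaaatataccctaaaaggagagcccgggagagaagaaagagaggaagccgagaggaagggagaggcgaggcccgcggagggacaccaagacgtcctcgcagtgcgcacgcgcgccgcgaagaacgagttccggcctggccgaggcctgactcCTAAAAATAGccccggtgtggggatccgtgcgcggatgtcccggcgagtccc
Cebpb: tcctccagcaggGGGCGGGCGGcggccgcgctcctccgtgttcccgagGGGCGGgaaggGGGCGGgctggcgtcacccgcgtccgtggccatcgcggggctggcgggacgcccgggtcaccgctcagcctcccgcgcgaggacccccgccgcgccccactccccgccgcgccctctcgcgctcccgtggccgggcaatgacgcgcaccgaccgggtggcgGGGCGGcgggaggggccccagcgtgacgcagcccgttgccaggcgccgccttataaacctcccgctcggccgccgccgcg
RefSeq windows matched 7 of the 9 genes by symbol, with 11 windows in all, and *Spi1* and *Maf* were not among them. Searched on both strands, the *Mef2a* window held the letters bound by its own family with the first base at position -2 from the start, and 3.69% of 32851 RefSeq promoter windows held these letters. The *Bhlhe41* window held the E-box CACGTG, which BHLHE41 binds, at position -153, against 7.15% of all windows. One of the 2 *Runx1* windows held TGTGGT, the RUNX letters, 2 times, at positions 29 and 37, against 16.8% of windows. No window of *Cebpa* or *Cebpb* held TTGCNNAA, none of *Irf8* held GAAANNGAAA and none of *Mef2c* held CTANNNNTAG. The *Cebpb* window held 5 GC boxes, one pair overlapping, and was 80.7% G and C, compared with 62.3% for *Mef2a*. At least 1 GC box was found in 35.7% of all windows. These matches describe letters only.

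**Figure D1:**
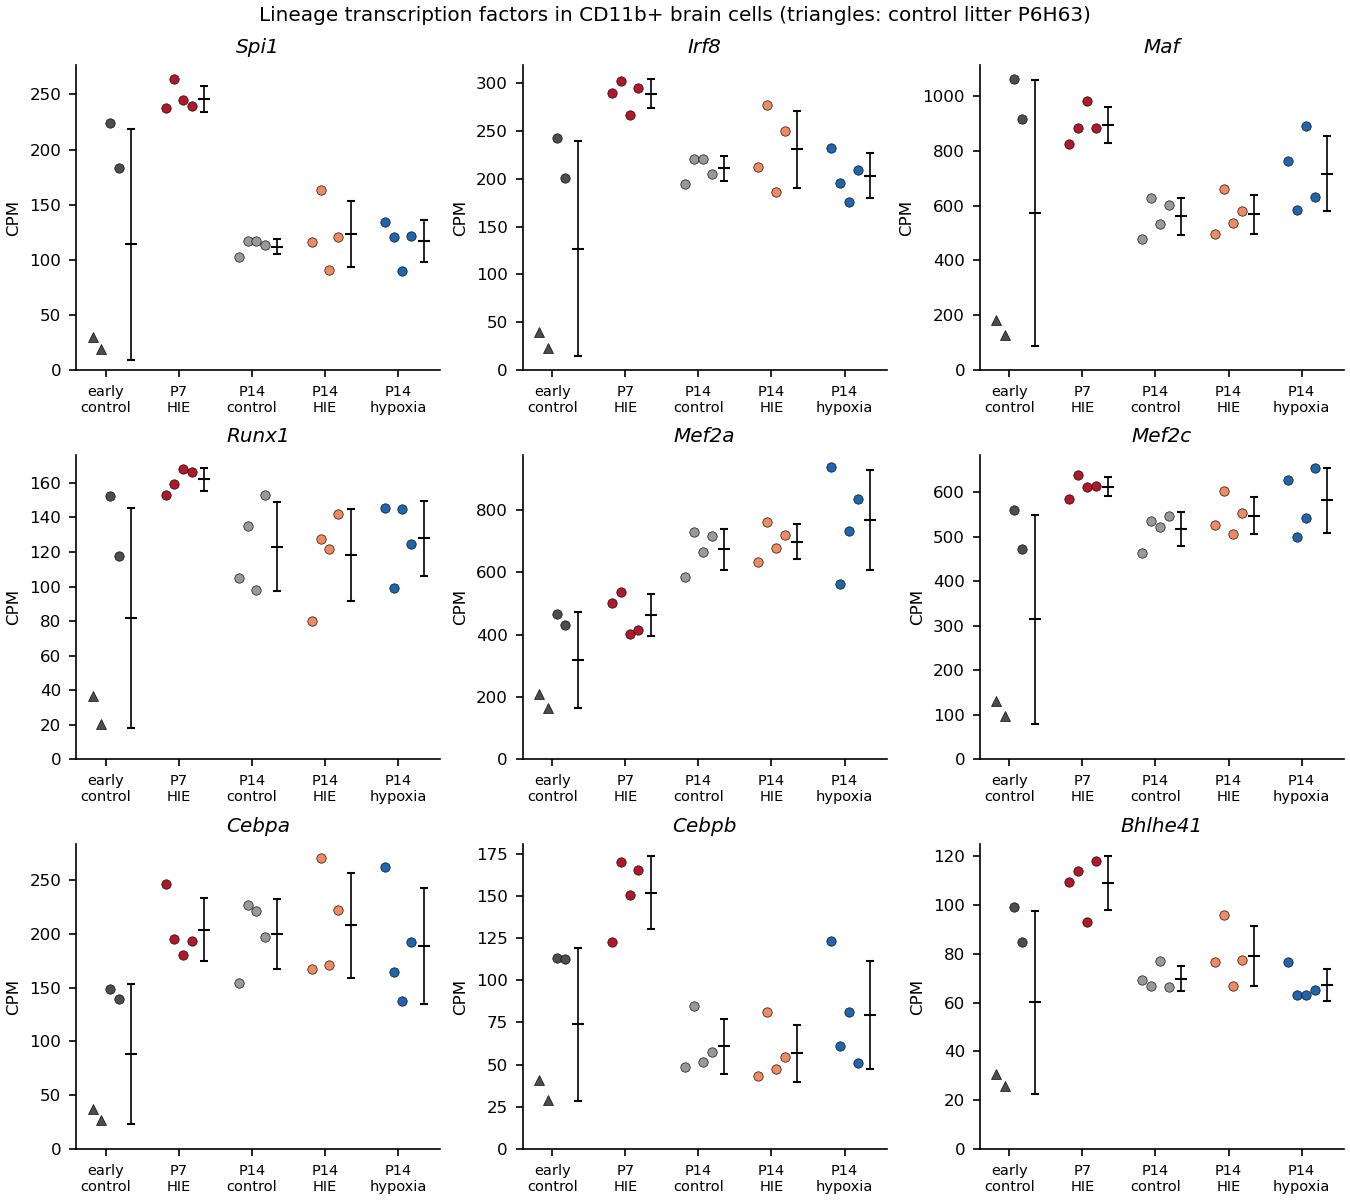
CPM (counts scaled to library size with TMM factors, linear axes from 0) of the 9 factors in each of 20 animals, with the group mean ± SD of 4 animals beside the points. The triangles are the 2 control pups of litter P6H63, which lay below every other animal for all 9 genes.

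Levels are given as CPM, the counts of a gene scaled to a common library size with TMM, a factor that corrects for differences in library composition. Per kilobase of exon, *Maf* ranked 1 or 2 in every group, with a group mean of 60.5 to 96.5 CPM per kb, and *Runx1* (6.45 to 12.8) and *Bhlhe41* (8.39 to 15.2) were the 2 lowest. *Cebpb*, a short gene, was the highest of the 9 per kilobase in P7 HIE animals (101.0 CPM per kb) and ranked 3 to 5 in the P14 groups (37.6 to 52.7), and *Cebpa* ranked 1 or 2 in all P14 groups (71.8 to 78.9). The 2 libraries made from each of 2 P14 HIE animals differed by a log2 difference of 0.00 to 0.23 over the 9 genes, with the highest value for *Cebpb*.

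The early controls split by litter for every factor before any treatment was considered. *Spi1* stood at 30.2 and 19.4 CPM in the P6H63 pups and at 224.5 and 183.5 in the P6H55 pups. *Maf* stood at 184.2 and 128.1 against 1064.0 and 917.6 CPM. The mean of the P6H55 pups was above that of the P6H63 pups for all 9 genes, by a ratio that ranged from 2.39 for *Mef2a* and 3.22 for *Cebpb* to 7.09 for *Irf8* and 8.22 for *Spi1*. This difference was not tested between litters, which hold 2 pups each. Markers of microglia, border macrophages and neutrophils moved with it. The mean log2 CPM of 15 measured markers of a list of 16 (*P2ry12*, *Tmem119*, *Cx3cr1* and others, none of them at 0 in any animal) was 6.28 and 5.65 in the P6H63 pups, 9.07 and 8.88 in the P6H55 pups and 9.22 to 9.95 in the other 16 animals. Summed over the list, microglia markers came to 1410 and 2210 CPM in the P6H63 pups and to 13900 or more in every other animal. Border macrophage markers (9 genes) summed to 513 and 397 CPM in the P6H63 pups and to 3450 and 2500 in the P6H55 pups, and neutrophil markers (10 genes) to 15.9 and 21.2 against 154 and 174. Monocyte markers (7 genes) had a lower mean log2 CPM in the P6H63 pups (2.28 and 2.11 against 3.49 and 3.22). Their summed CPM overlapped between the litters (181 and 235 against 192 and 189). Astrocyte markers (9 genes, mean log2 CPM 8.15 and 8.51 in P6H63 pups, 6.71 and 7.23 in P6H55 pups), endothelial markers (9 genes, 7.62 and 7.34 against 6.44 and 6.41) and mural markers (7 genes, 7.19 and 7.03 against 5.92 and 5.84) were higher in the P6H63 pups. In such bulk samples, fewer cells of a type and less RNA per cell cannot be told apart.

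**Figure D2:**
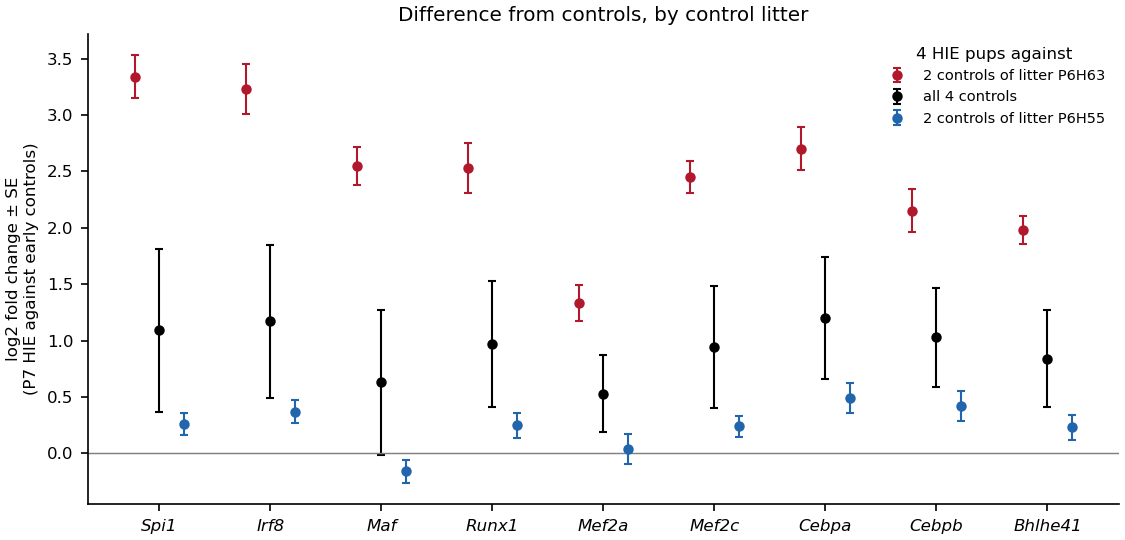
log2 fold change ± SE (edgeR) of each factor in 4 P7 HIE pups against all 4 early controls (black), against the 2 controls of litter P6H63 (red) and against the 2 of litter P6H55 (blue). The red points run from 1.33 to 3.34 and the blue points from -0.16 to 0.49.

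The first comparison asked whether HIE altered the factors one day after hypoxia. No factor passed the test between the 4 P7 HIE pups and the 4 early controls (0 of 9 by edgeR's quasi-likelihood test, against 0.0666% of 22517 genes called). At an unadjusted p under 0.05 the count was 1 of 9, where 6144 of 22517 genes came under that threshold. DESeq2 and edgeR's exact test also called 0 of 9, where they called 3024 and 1311 genes in all. All 9 fold changes were positive, from 0.53 ± 0.34 (SE) on the log2 scale for *Mef2a* to 1.2 ± 0.54 for *Cebpa*, with a median of 0.97 against -0.08 for all genes tested and edgeR adjusted p-values of 0.177 to 0.513. All 4 HIE pups were above all 4 controls for 6 of the 9 genes, where 9.21% of genes showed this separation.

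The value depended on the control litter. Against the 2 P6H63 pups alone, 9 of 9 factors were called higher in HIE, from 1.33 (*Mef2a*) to 3.34 (*Spi1*) on the log2 scale, and 58.5% of all genes were called in this fit. Against the 2 P6H55 pups alone, 0 of 9 were called (0.112% of all genes), with values from -0.16 ± 0.10 (*Maf*) to 0.49 ± 0.13 (*Cebpa*). With the microglia marker mean as a covariate, 0 of 9 were called, where 19 of 22517 genes were called in all. The values of the 9 then ran from -0.44 (*Maf*) to 0.24 (*Cebpa*).

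*Spi1* in the P7 HIE pups was 237.3, 263.8, 245.1 and 239.5 CPM, a narrow range just above the P6H55 controls (224.5 and 183.5). *Irf8*, its composite-site partner, was 267.0 to 302.2 CPM in HIE against 201.0 and 242.8 in the P6H55 pups and 23.1 and 39.5 in the P6H63 pups. The ratio of *Spi1* to *Irf8* was nearly level across these animals despite the wide range of both genes. Its log2 value was -0.23 ± 0.08 (SD, n = 4) in HIE and -0.22 ± 0.13 in early controls.

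*Cebpb* was 122.7, 170.1, 150.6 and 165.5 CPM in the HIE pups, 113.0 and 112.4 in the P6H55 controls and 40.9 and 29.0 in the P6H63 controls. Of the 9 factors it had the smallest p in this comparison by edgeR's quasi-likelihood test (1.03 ± 0.44 on the log2 scale, adjusted p = 0.177). Every HIE value was above every control value, but the lowest HIE pup (122.7) was close to the P6H55 pups. *Cebpa* was 180.1 to 246.2 CPM in HIE and 139.3 and 148.9 in P6H55 pups.

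*Maf* was 826.9, 885.0, 983.3 and 884.5 CPM in HIE, within or below the range of the P6H55 pups (1064.0 and 917.6). *Mef2a* (401.3 to 538.1 CPM in HIE) overlapped the P6H55 pups (432.5 and 467.4). *Runx1* was 153.1 to 167.7 CPM in HIE, with no overlap, and 117.5 and 152.5 in P6H55 pups. *Mef2c*, a MEF2 factor with a known role in restraining microglial activation, was 586.3 to 639.1 CPM in HIE and 472.3 and 560.9 in P6H55 pups. *Bhlhe41* was 93.1 to 118.1 CPM in HIE and 84.8 and 99.3 in P6H55 pups.

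The ratios between factors compare 2 genes of one animal. None had an adjusted p under 0.05 over the 20 ratio comparisons computed for treatment. A single ratio could not have passed, since the smallest exact p with 4 against 4 gives an adjusted p of 0.571 there. No conclusion is drawn from these adjusted values. The log2 ratio of *Bhlhe41* to *Bhlhe40*, its stress-inducible paralog, was higher in every P7 HIE pup than in every early control (1.77 ± 0.19 against -0.19 ± 1.66, exact two-sided permutation p = 0.0286, the smallest that 4 against 4 allows, adjusted p = 0.571). The control values were -1.44 and -1.79 in the P6H63 pups and 1.47 and 1.0 in the P6H55 pups. For *Mef2c* to *Mef2a* the log2 ratio was 0.41 ± 0.20 in HIE and -0.27 ± 0.54 in early controls (exact permutation p = 0.0857, adjusted p = 0.571). Here too the control litters differed, with -0.67 and -0.78 in P6H63 pups and 0.26 and 0.13 in P6H55 pups.

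**Figure D3:**
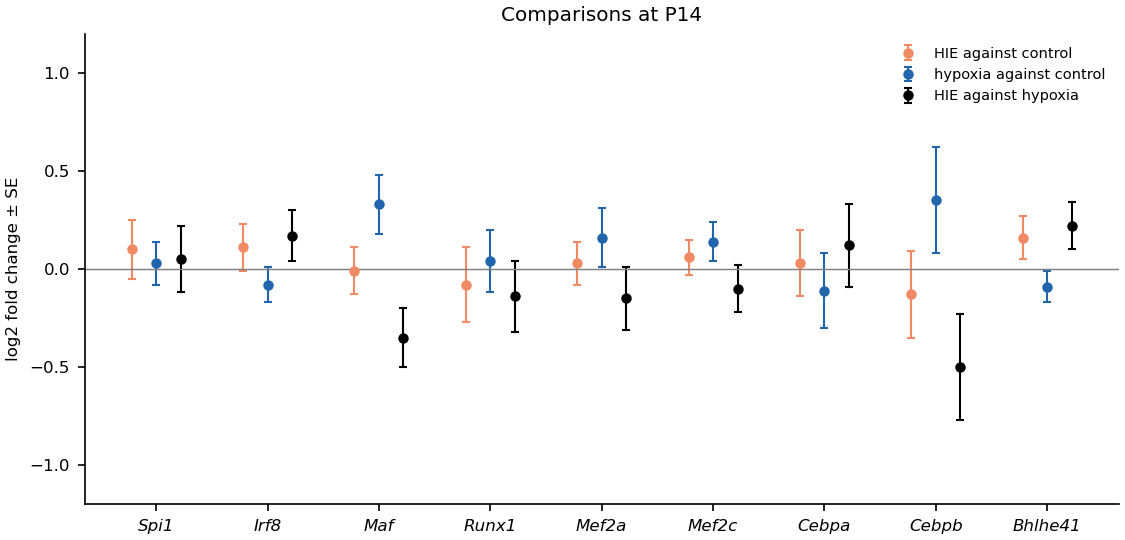
log2 fold change ± SE (edgeR) of each factor for HIE against control, Hypoxia against control and HIE against Hypoxia at P14, 4 animals a group. No point passed the test, and the values lie between -0.50 and 0.35, both for *Cebpb*.

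At P14 the treatments were compared with controls of the same age and with each other. No factor passed the test for HIE against control (0 of 9, with 0.00478% of genes called), for Hypoxia against control (0 of 9, 0.00954%) or for HIE against Hypoxia (0 of 9, 0.00955%), by edgeR, and DESeq2 and edgeR's exact test also called 0 of 9 in each. At an unadjusted p under 0.05 the counts were 0, 0 and 1 of 9, where 2066 of 20935, 1997 of 20954 and 946 of 20951 genes came under that threshold. The groups overlapped for all 9 factors in all 3 comparisons. The median log2 fold changes over the 9 were 0.03, 0.04 and -0.10, beside 0.01, -0.01 and -0.01 for all genes tested. HIE against control and Hypoxia against control share the control animals, and the values are given side by side.

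HIE and control differed by small amounts at P14, from -0.13 ± 0.22 (SE) for *Cebpb* to 0.16 ± 0.11 for *Bhlhe41* on the log2 scale. *Spi1* was 102.6, 116.9, 116.8 and 113.4 CPM in controls, 116.3, 163.0, 91.0 and 120.6 in HIE and 134.4, 120.3, 90.1 and 121.7 in Hypoxia. The HIE values bracketed the controls, with one animal (P4H1-6F, 163.0) above all others. *Irf8* was 194.6 to 221.1 CPM in controls, 185.6 to 276.9 in HIE and 175.3 to 231.7 in Hypoxia. *Cebpa* was 154.7 to 227.0, 167.4 to 271.0 and 137.3 to 262.7 CPM in the same order.

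*Maf* was 477.7, 627.6, 534.3 and 603.9 CPM in controls, 495.0, 660.4, 535.1 and 581.0 in HIE and 761.6, 585.7, 889.4 and 632.6 in Hypoxia. The 2 highest Hypoxia animals, one of each litter, were above every other P14 animal and the other 2 lay within the range of the other groups. Of the 9 factors only *Maf* came under an unadjusted threshold of 0.05 at P14, in HIE against Hypoxia (-0.35 ± 0.15 on the log2 scale, edgeR adjusted p = 0.999), and Hypoxia against control gave 0.33 ± 0.15 (adjusted p = 0.527).

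*Cebpb* was 48.8, 85.0, 51.8 and 57.5 CPM in controls, 43.5, 80.9, 47.6 and 54.4 in HIE and 123.3, 61.1, 81.4 and 51.0 in Hypoxia. The log2 fold change of *Cebpb* was 0.35 ± 0.27 for Hypoxia against control and -0.50 ± 0.27 for HIE against Hypoxia, with edgeR adjusted p-values of 0.695 and 0.999. Leaving out 1 animal at a time gave 0.07 to 0.56 and -0.71 to -0.21. One Hypoxia animal (P6H7-16M, 123.3) was above all other P14 animals. The log2 ratio of *Cebpb* to *Cebpa* was -1.74 ± 0.28 in controls, -1.89 ± 0.12 in HIE and -1.30 ± 0.50 in Hypoxia (HIE against Hypoxia, exact permutation p = 0.0857, adjusted p = 0.571).

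*Mef2a* was 584.0 to 730.9 CPM in controls, 633.8 to 762.2 in HIE and 562.0 to 939.1 in Hypoxia, and *Mef2c* 464.4 to 548.2, 507.6 to 603.4 and 499.2 to 656.0. *Runx1* was 98.1 to 152.9, 80.2 to 142.1 and 99.2 to 145.2 CPM, and *Bhlhe41* 66.2 to 77.1, 66.6 to 95.9 and 63.1 to 76.8. In the Hypoxia group, 3 animals had 63.1, 63.1 and 65.0 CPM of *Bhlhe41* and P6H7-16M had 76.8. Markers of other cell types varied at P14 too. All 10 neutrophil markers had positive fold changes in HIE (median 1.01 on the log2 scale) and in Hypoxia (median 0.93) against control, and none of them passed the test in either comparison. Mural markers had a mean log2 CPM of 5.31 to 5.60 in controls, 5.75 to 6.30 in HIE and 5.79 to 6.30 in Hypoxia, and neuron markers 3.74 to 4.70, 3.19 to 3.57 and 3.29 to 4.10, while microglia markers overlapped in all 3 groups (9.28 to 9.63, 9.37 to 9.95 and 9.22 to 9.88). The part of these differences in the factor levels was not tested beyond the fits with the microglia marker mean as a covariate, which called 0 of 9 factors in each P14 comparison. Over all genes those fits called 1 of 20935 in HIE against control and 1 of 20954 in Hypoxia against control. In HIE against Hypoxia the count was 2 of 20951.

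**Figure D4:**
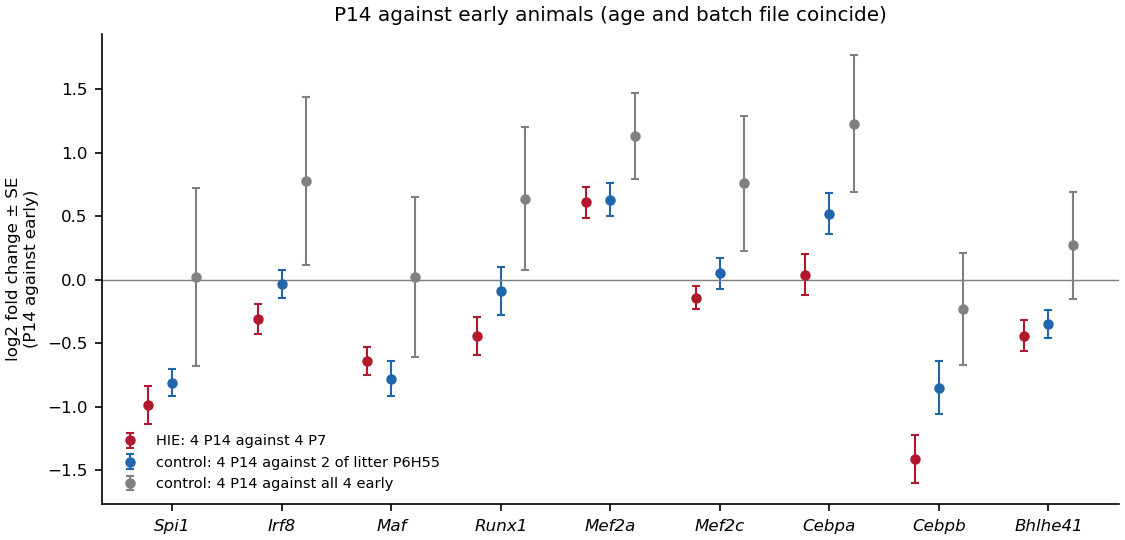
log2 fold change ± SE (edgeR) of each factor at P14 against early animals, in HIE (red, 4 against 4), in controls against all 4 early controls (grey) and against the 2 early controls of litter P6H55 (blue). *Cebpb*, *Spi1* and *Maf* lie lowest and *Mef2a* highest in the red and blue series, and the error bars of the grey series are the widest.

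The factors were then compared between ages. In HIE animals, 6 of 9 factors passed the test between P14 and P7, 5 lower and 1 higher at P14, where 46.0% of 22578 genes were called, 23.2% lower and 22.8% higher. *Cebpb* fell by 1.41 ± 0.19 (SE) on the log2 scale (edgeR adjusted p = 0.000202) and *Spi1* fell by 0.99 ± 0.15 (adjusted p = 0.000407). *Maf* fell by 0.64 ± 0.11 (adjusted p = 0.00103), *Bhlhe41* fell by 0.44 ± 0.12 (adjusted p = 0.00987) and *Runx1* fell by 0.44 ± 0.15 (adjusted p = 0.0318). *Mef2a* rose by 0.61 ± 0.12 (adjusted p = 0.00232). The other 3 did not pass, *Irf8* with -0.31 ± 0.12 (adjusted p = 0.0541), *Mef2c* with -0.14 ± 0.09 (adjusted p = 0.20) and *Cebpa* with 0.04 ± 0.16 (adjusted p = 0.844). Every P14 animal was below every P7 animal for 4 factors and above for 1, against 24.0% of genes with the former pattern. The median over the 9 was -0.44 on the log2 scale, against 0.02 for all genes tested.

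For *Cebpb* the 4 P7 HIE values (122.7 to 170.1 CPM) were all above the 4 P14 HIE values (43.5 to 80.9), and for *Spi1* 237.3 to 263.8 CPM stood against 91.0 to 163.0. *Maf* went from 826.9 to 983.3 CPM at P7 to 495.0 to 660.4 at P14. *Mef2a* went the other way, from 401.3 to 538.1 CPM to 633.8 to 762.2, with no overlap. *Cebpa* showed no such shift, with 180.1 to 246.2 CPM at P7 and 167.4 to 271.0 at P14.

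The call of *Runx1* rested on several single animals, since its adjusted p was 0.0552 without N5-4, 0.0616 without N8-3, 0.0614 without N8-4 and 0.0599 without P6H12-14F. *Irf8* passed without P4H1-6F (-0.40 on the log2 scale, adjusted p = 0.0151). With the microglia marker mean as a covariate, 5 of 9 were called, all lower, where 36.6% of genes were called in either direction, *Irf8* among them (-0.64, adjusted p = 0.00648), while *Runx1* (adjusted p = 0.288) and *Mef2a* (0.46, adjusted p = 0.0585) did not pass.

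In controls, 1 of 9 factors passed between P14 and all 4 early controls, *Mef2a*, which rose by 1.13 ± 0.34 on the log2 scale (edgeR adjusted p = 0.0345), where 33.0% of 22320 genes were called. The remaining 8 ran from -0.23 ± 0.44 (*Cebpb*) to 1.23 ± 0.54 (*Cebpa*, adjusted p = 0.106). *Mef2a* lost its call without P6H63-7 (adjusted p = 0.0851), without P6H63-8 (0.0531) and without any one of the P14 controls (0.0629 for P4H4-8M, 0.0850 for P6H8-8F, 0.0738 for P4H4-7F and 0.0864 for P6H8-7M).

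Against the 2 early controls of litter P6H55 alone, 6 of 9 factors were called, 4 lower and 2 higher at P14, with 31.2% of all genes called. *Cebpb* fell by 0.85 ± 0.21, *Spi1* fell by 0.81 ± 0.11, *Maf* fell by 0.78 ± 0.14 and *Bhlhe41* fell by 0.35 ± 0.11, while *Mef2a* rose by 0.63 ± 0.13 and *Cebpa* rose by 0.52 ± 0.16 on the log2 scale. With all 4 early controls and the microglia marker mean as a covariate, 6 of 9 were called as well (30.8% of all genes), *Spi1*, *Maf*, *Cebpb*, *Bhlhe41* and *Irf8* lower and *Mef2a* higher. The control and HIE age comparisons share no animals.

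Whether the HIE difference changed with age was tested directly as an interaction over the 16 control and HIE animals. No factor passed (0 of 9 by edgeR, 1 of 9 at an unadjusted p under 0.05, 0 by DESeq2, against 0.00405% of genes called). Over all 24695 genes, 3433 came under the unadjusted threshold and DESeq2 called 674. The differences between the early and the P14 effect were 0.49 ± 0.37 (*Mef2a*) to 1.16 ± 0.59 (*Cebpa*) on the log2 scale, with adjusted p-values of 0.337 to 0.689. These values rested on litter P6H63. With early controls of litter P6H55 only, they ran from -0.15 (*Maf*) to 0.55 (*Cebpb*), and 0 of 9 were called, where 0 of 25849 genes were called.

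**Figure D5:**
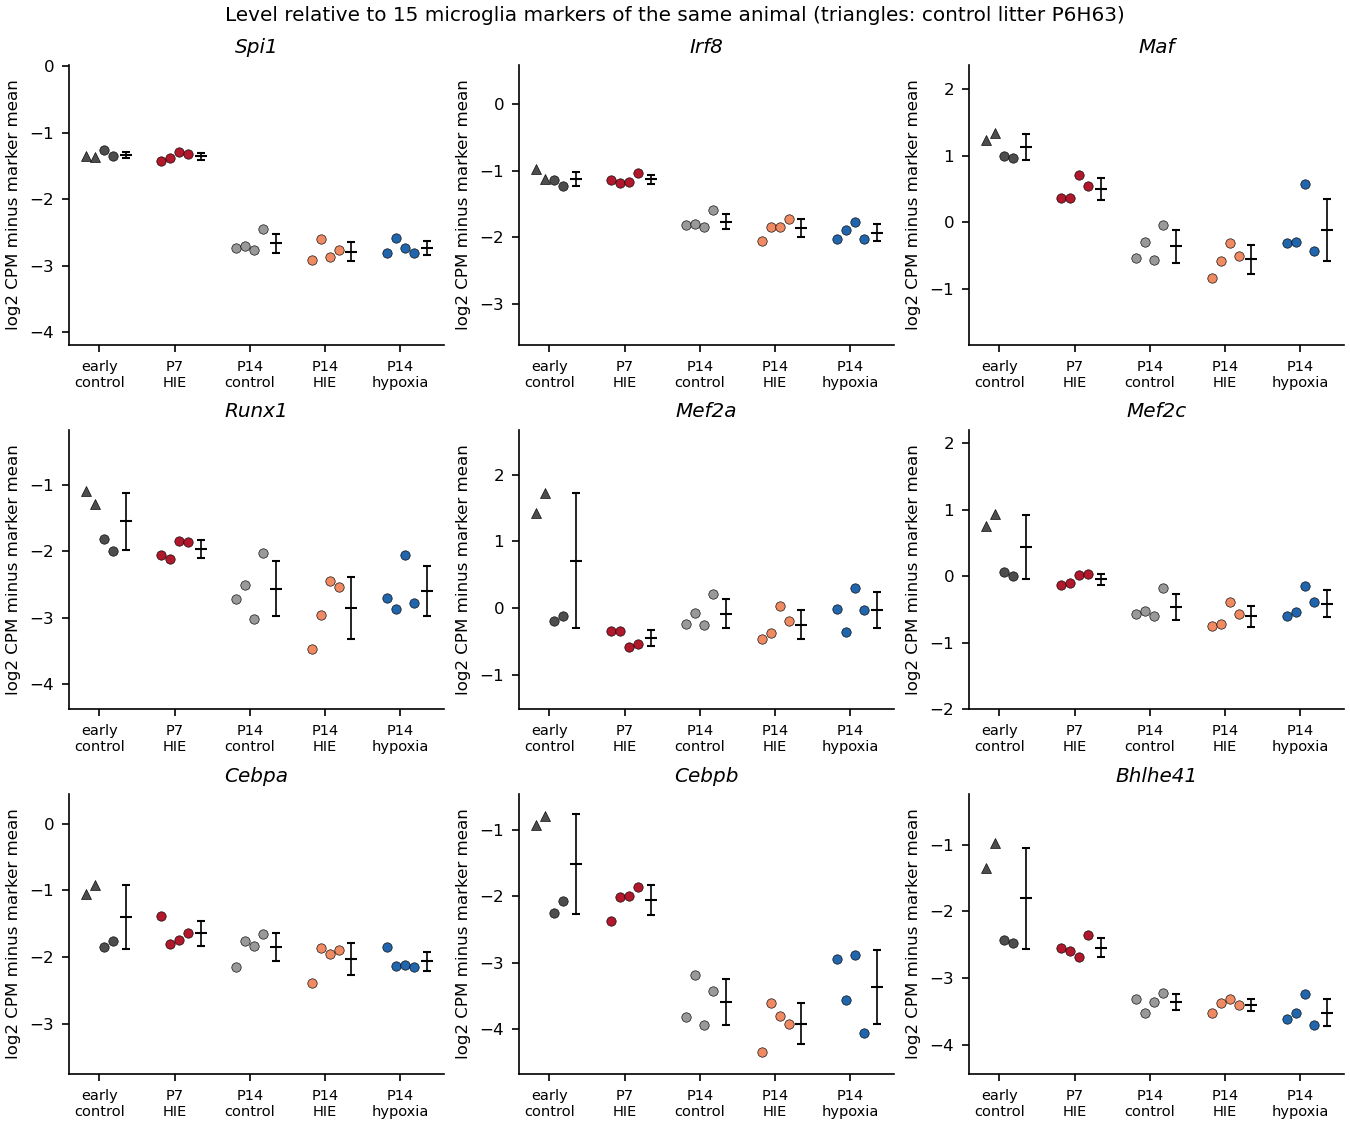
log2 CPM of each factor minus the mean log2 CPM of 15 microglia markers in the same animal, with the mean ± SD of each group of 4 beside the points. *Spi1* in early animals, P6H63 pups (triangles) included, lies between -1.43 and -1.26, and in P14 animals between -2.92 and -2.45.

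Relative to the microglia markers of the same animal, the factors fell into distinct patterns. These values are a description, and the markers themselves differ with age. In HIE animals 8 of the 15 measured microglia markers rose and 1 fell between P7 and P14, with a median of 0.46 on the log2 scale. *Spi1* followed the markers closely in early animals. Its log2 level minus the marker mean was -1.37 and -1.36 in the P6H63 pups, -1.36 to -1.26 in the P6H55 pups and -1.43 to -1.30 in the P7 HIE pups, so an 8.22-fold litter difference in CPM left a spread of 0.06 (SD, n = 4) among early controls. At P14 the value was -2.67 ± 0.15 in controls, -2.79 ± 0.14 in HIE and -2.73 ± 0.11 in Hypoxia. *Irf8* varied somewhat more among early controls (-1.12 ± 0.10, and -1.13 ± 0.07 in P7 HIE) and stood at -1.76 to -1.93 in the P14 group means.

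*Mef2a*, *Cebpb* and *Bhlhe41* shifted against the markers between the early control litters by over 1 on the log2 scale. The *Mef2a* level minus the marker mean was 1.43 and 1.73 in P6H63 pups against -0.20 and -0.12 in P6H55 pups, that of *Cebpb* was -0.93 and -0.80 against -2.25 and -2.07, and that of *Bhlhe41* was -1.34 and -0.97 against -2.47 and -2.43. These 3 genes had the 3 smallest litter ratios in CPM. Smaller shifts without overlap were seen for *Cebpa* (-1.06 and -0.92 against -1.85 and -1.76), *Mef2c* (0.76 and 0.94 against 0.07 and 0.00) and *Runx1* (-1.09 and -1.29 against -1.81 and -2.0). The litters also separated for *Maf* (1.24 and 1.35 against 0.99 and 0.96) and, narrowly, for *Irf8* (-0.98 and -1.12 against -1.14 and -1.23). Relative to the markers, *Maf* and *Mef2a* were lower in every P7 HIE pup than in every early control, and the groups overlapped for the other factors. The share of all genes with this separation was not computed on this scale, so no conclusion is drawn from it. The difference of the group means was -0.64 for *Maf* (0.50 ± 0.16 against 1.13 ± 0.19) and -1.17 for *Mef2a* (-0.46 ± 0.12 against 0.71 ± 1.01). For *Mef2a* the HIE pups ran from -0.58 to -0.35, close to the P6H55 pups (-0.20 and -0.12) and far from the P6H63 pups (1.43 and 1.73). For *Maf* the HIE pups ran from 0.37 to 0.71, against 0.99 and 0.96 in the P6H55 pups.

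Ratios between 2 factors differed between ages for some pairs and not for others. The log2 ratio of *Cebpb* to *Cebpa* was -0.11 ± 0.28 in early controls and -0.42 ± 0.39 in P7 HIE, and -1.74, -1.89 and -1.30 in the P14 control, HIE and Hypoxia group means. In CPM, without correction for gene length, *Cebpb* was thus at 0.925 and 0.747 of *Cebpa* in the early groups, on the geometric mean of animals. At P14 it was at 0.270 to 0.407 of *Cebpa*. Per kilobase of exon, the mean of *Cebpb* was above that of *Cebpa* in early controls (49.1 against 33.4) and P7 HIE (101.0 against 77.3). It was below that of *Cebpa* in all P14 groups. For *Spi1* to *Irf8* the log2 ratio was -0.39 to -0.11 in early animals and -1.05 to -0.70 in P14 animals. Without the P6H63 pups the early range was -0.30 to -0.11. The log2 ratio of *Bhlhe41* to *Bhlhe40* was 1.77 in P7 HIE and 1.74 in P14 HIE animals. In controls it was 1.66 at P14, and early it was -1.44 and -1.79 in P6H63 pups and 1.47 and 1.0 in P6H55 pups. The log2 ratio of *Mef2c* to *Mef2a* was 0.41 in P7 HIE and -0.35 in P14 HIE, and -0.27 and -0.38 in early and P14 controls. The early control mean joined -0.67 and -0.78 in P6H63 pups with 0.26 and 0.13 in P6H55 pups. The P7 HIE pups ran from 0.22 to 0.61.

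Wider lists of related genes were counted in the same fits. They were chosen with earlier results of these data known. None of the tested genes of 6 lists, which were 17 ETS and IRF partners, 17 further microglia identity factors, 15 paralogs and dimer partners, 17 PU.1 and IRF8 targets, 19 C/EBP targets and 13 MAF targets, passed the test in P7 HIE against early controls or in any P14 comparison. In P7 HIE against early controls their medians were 0.62, 0.58, 0.42, 1.11, 0.87 and 1.02 on the log2 scale, against -0.08 for all genes, and the 15 measured microglia markers had a median of 1.15. *Csf1r*, the receptor of the main microglial growth factor and a PU.1 target, had 1.21 ± 0.73 (adjusted p = 0.289), and *Cd14*, the LPS co-receptor, had 1.47 ± 0.59 (adjusted p = 0.166). The early controls in this fit include the P6H63 pups and spread widely, at 2210 ± 2020 CPM (SD) for *Csf1r* and 105 ± 83.4 for *Cd14*. The lists were not counted against litter P6H55 alone, so how far these medians depend on the control litter was not tested.

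Between P7 and P14 in HIE animals, 8 of 17 ETS and IRF partners fell and none rose, where 23.2% of all genes were lower and 22.8% higher, the background for each count over these lists. The fallers included *Ets2* (-1.29 ± 0.16 on the log2 scale, edgeR adjusted p = 0.000150) and *Irf7*, the interferon-response factor (-0.99 ± 0.17, adjusted p = 0.000959). Of the further identity factors, 12 of 17 fell and 1 rose. The immediate early factors *Egr1* (-2.21 ± 0.21, adjusted p = 2.97e-05) and *Nr4a1* (-1.94 ± 0.23, adjusted p = 0.000103) fell most, and *Smad3*, a transducer of TGF-β, rose (0.38 ± 0.10, adjusted p = 0.00861). Among paralogs and dimer partners, 6 of 15 fell, with *Atf3* (-1.16 ± 0.29) and *Jun* (-0.91 ± 0.18) the lowest, and 2 rose, *Cebpg* (0.50 ± 0.10) among them.

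PU.1 and IRF8 targets went in both directions between the ages in HIE animals. Of 17 targets 7 rose and 3 fell, with a median of 0.08, again beside 22.8% higher and 23.2% lower among all genes. *P2ry12*, the ADP receptor of mature microglia, rose by 0.95 ± 0.18 (adjusted p = 0.00163) and *Ctss*, a lysosomal protease, rose by 0.89 ± 0.13 (adjusted p = 0.000362), while *Cd180* fell by 0.93 ± 0.11 (adjusted p = 0.000117) and *Cd68*, a lysosomal glycoprotein, fell by 0.73 ± 0.22 (adjusted p = 0.0216). C/EBP targets had 9 of 18 tested genes lower and 2 higher, with a median of -0.55. The cytokines *Il10* (-3.36 ± 0.43, adjusted p = 0.000182) and *Tnf* (-3.07 ± 0.40, adjusted p = 0.000198) fell most. The 2 that rose, *S100a9* (1.81 ± 0.49) and *S100a8* (1.46 ± 0.51), are also on the list of neutrophil markers. Neutrophil markers had a mean log2 CPM of 1.64 to 2.95 in P7 HIE and 1.60 to 4.23 in P14 HIE animals, and their part in those 2 values was not tested. MAF targets had 6 of 13 lower and 1 higher, with *Il10* and *Folr2* (-1.11 ± 0.17) lowest and the complement gene *C1qa* higher (0.75 ± 0.14, adjusted p = 0.00139).

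In controls between the ages the same lists were counted with all 4 early controls, in a fit that called 33.0% of all genes (7364 of 22320). *Smad3* rose among identity factors (1 of 17), *Vsig4*, a complement receptor of resident macrophages, rose among MAF targets (1 of 13, 2.97 ± 0.75), *Cebpg* rose and *Bhlhe40* fell among paralogs (2 of 15), and *Csf3r* rose and *Nos2* fell among C/EBP targets (2 of 18). No ETS and IRF partner and no PU.1 and IRF8 target passed.

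The genes whose log2 CPM was most like that of each factor over the 20 animals had a Pearson's r of 0.937 to 0.996 for the 3 closest to each. *Spi1* was most like *Rac2*, *Arpc1b* and *Ptpn18*, *Irf8* was most like *Lrrc25*, *Unc93b1* and *Pik3cd*, and *Mef2c* was most like *Arhgef6*, *Pip4k2a* and *Rassf5*. *Cebpb* had *Btg2*, *Mcl1* and *Tnfrsf1a* as its closest genes and *Mef2a* had *Rapgef5*, *Nrip1* and *Picalm*. The 20 animals include the P6H63 pups and both batch files. Over the 12 P14 animals the closest genes were others in nearly every case, and only *Nrip1* was among the 3 closest to the same factor, *Mef2a*, in both sets (r = 0.949 at P14). *Cebpb* was then most like *Irf2bp2*, *Dusp1* and *Ap1b1* (r of 0.909, 0.895 and 0.886). Correlations between the factors themselves were positive for all 36 pairs over 20 animals (median r = 0.88), for 29 of 36 without litter P6H63 (median 0.50) and for 33 of 36 over the P14 animals (median 0.48). These are descriptions over samples that share litters and batch files.

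Some counts carry a further uncertainty. Exons of *Maf*, *Runx1*, *Mef2a*, *Cebpa*, *Cebpb* and *Bhlhe41* overlap exons of a gene on the opposite strand in the GENCODE annotation of GRCm39, by 51 bases (*Cebpa*) to 1583 bases (*Bhlhe41*), and the strand setting of the counting is not given in the sources used here. Reads in those stretches may not be told apart from their partners. Exons of *Spi1* (chr2:90912562-90946101), *Irf8* (chr8:121463096-121485659) and *Mef2c* (chr13:83652064-83815555) overlap no exon of another gene.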

How the data were processed

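Whole brains were dissociated and CD11b+ cells enriched with magnetic beads, and ribosome-depleted stranded total RNA libraries were sequenced. The authors aligned reads with STAR to GRCm39 and deposited RSEM expected counts per gene. RSEM shares out reads that fit several genes, and 84.2% to 88.0% of the values of a library, zeros included, were whole numbers. Counts were rounded, the 2 libraries of each of 2 animals were summed, and Ensembl identifiers were matched to GENCODE M39 symbols (56017 of 56691 genes). Comparisons were fitted on all genes with edgeR 4.0.16 (TMM, filterByExpr, quasi-likelihood test, Benjamini-Hochberg adjustment, threshold 0.05) in R 4.3.3, each on its own groups, and the interaction on the control and HIE groups of both ages. Levels are CPM with TMM factors over all 20 animals, and log2 CPM uses a prior count of 2. A count of 3 corresponds to 0.0359 to 0.101 CPM. Ratios were compared with exact permutation tests over animals (scipy 1.17.1). Alternatives were DESeq2 1.42.0, other normalizations, no filter, edgeR's exact test, single control litters, sex, cohort or the microglia marker mean as covariates and leaving out each animal; sex for HIE against Hypoxia and the marker mean for the 2 Hypoxia comparisons were added after the data were seen. The fit was also run on simulated counts, and the outcome is not given here. All 9 factors are named in every comparison. From each list the 2 largest called changes in each direction are named or, where none was called, 2 genes of the highest mean CPM, and likeness was ranked by Pearson's r. The factors and lists were chosen with earlier results of these data known. Promoter windows are RefSeq's. One ratio that was computed is not reported here.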

Additional observations from a re-analysis of the deposited data

Results flagged for a closer look

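In 3 of 70 groups of 4 animals checked for the 9 CPM levels and 5 ratios between factors, the gap of one animal to its nearest neighbour took up more of the group's range than Dixon's critical value, where chance gives about 1 in 20 groups. *Bhlhe41* in P14 Hypoxia was highest in P6H7-16M (76.8 CPM, gap over range 0.855), the animal that also had the highest *Cebpb* level at P14 (123.3 CPM). The log2 ratio of *Cebpb* to *Cebpa* in P7 HIE was lowest in N5-3 (-1.0, gap over range 0.925), which had both the lowest *Cebpb* (122.7 CPM) and the highest *Cebpa* (246.2 CPM) of its group. That of *Spi1* to *Irf8* in P14 controls was highest in P6H8-7M (-0.86, gap over range 0.936), in a group whose range was -0.92 to -0.86. The 2 control pups of litter P6H63 were not marked by this rule, since 2 low animals of 4 leave no single gap.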

How the results depend on the processing

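The counts of factors called stayed within 1.5 times of the main count, or at 0, in 48 fits under other settings and in 42 fits that left out 1 animal, and left that range in 3 and 6 fits. The count of 9 called was 0 in the main fit of P7 HIE against early controls and 9 against litter P6H63 alone, and in controls between ages it was 1 in the main fit, 6 against litter P6H55 alone and 6 with the marker mean as a covariate. Leaving out 1 animal gave 0 to 1 in that comparison and 5 to 7 in HIE animals, against 6, and 0 in each treatment comparison. Over all genes, calls by edgeR, DESeq2 and the exact test were 15, 3024 and 1311 in P7 HIE against early controls, 1, 496 and 236 in P14 HIE against control, 2, 169 and 62 in Hypoxia against control and 2, 15 and 17 in HIE against Hypoxia. With library sizes alone the median of all genes moved from -0.08 to -0.28 in P7 HIE against early controls and from -0.02 to -0.23 in controls between ages, and all 9 factors stayed positive in the former. Single log2 fold changes that turned sign are listed by setting, and the cause was not tested. With library sizes alone, these were *Mef2a* -0.01 and *Cebpa* -0.01 in P14 HIE against control, *Spi1* -0.07 and *Maf* -0.09 in control P14 against early. Without the filter on low counts, these were *Maf* 0.02 in P14 HIE against control, *Spi1* -0.02 and *Maf* -0.03 in control P14 against early. With DESeq2, these were *Spi1* 0.00 and *Maf* -0.01 in control P14 against early. With RLE normalization, these were *Spi1* 0.00 and *Maf* -0.01 in control P14 against early. With controls of litter P6H55 only, these were *Maf* -0.16 in P7 HIE against early controls. With the microglia marker mean as a covariate, these were *Spi1* -0.08, *Maf* -0.44, *Runx1* -0.02, *Mef2a* -0.13 and *Mef2c* -0.01 in P7 HIE against early controls, *Spi1* -0.13, *Irf8* -0.05, *Runx1* 0.04 and *Cebpa* -0.16 in P14 HIE against control, *Spi1* -1.31, *Irf8* -0.51, *Maf* -1.2, *Runx1* -0.45, *Mef2c* -0.30 and *Bhlhe41* -0.63 in control P14 against early, *Cebpa* -0.31 in HIE P14 against P7, *Spi1* -0.05 in P14 Hypoxia against control, *Spi1* -0.07 in P14 HIE against Hypoxia. With cohort as a covariate, these were *Maf* 0.00 in P14 HIE against control. With P6H animals only, these were *Spi1* -0.01 and *Runx1* -0.19 in P14 Hypoxia against control, *Spi1* -0.15 and *Runx1* 0.03 in P14 HIE against Hypoxia. With early controls of litter P6H55 only, these were *Spi1* -0.81, *Irf8* -0.03, *Maf* -0.78, *Runx1* -0.09 and *Bhlhe41* -0.35 in control P14 against early, *Maf* -0.15 in the interaction. When 1 animal was left out, signs also turned. In P14 HIE against control this held for *Mef2a* -0.03 to 0.07, *Cebpa* -0.11 to 0.12, *Maf* -0.07 to 0.05, *Cebpb* -0.34 to 0.08, *Runx1* -0.18 to 0.06 and *Spi1* -0.05 to 0.21. In P14 Hypoxia against control this held for *Spi1* -0.04 to 0.13, *Runx1* -0.06 to 0.16 and *Cebpa* -0.29 to 0.01. In P14 HIE against Hypoxia this held for *Spi1* -0.10 to 0.17, *Cebpa* -0.03 to 0.31 and *Runx1* -0.24 to 0.00. In control P14 against early this held for *Spi1* -0.36 to 0.57, *Maf* -0.34 to 0.49, *Bhlhe41* -0.02 to 0.61 and *Cebpb* -0.53 to 0.04. In HIE P14 against P7 this held for *Cebpa* -0.11 to 0.14. No paired analysis was possible because the groups share no animals or litters. The 2 pups per litter and 4 animals per group limit the precision. Every factor had over 19 CPM in every animal.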
